A study of Mus musculus with 9 samples.

Results

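The integrated stress response genes examined here were 32 genes that ATF4 is known to control or work with. They were chosen by name, with earlier results of these data known, and found as rows of a count table of mouse pancreatic islets. They occupied 33 of the 56941 rows, because Ddit3 carried 2 Ensembl identifiers, and all 32 passed the filter on low counts that left 18548 genes for testing. The islets came from wild-type male C57BL/6J mice that were 15 weeks of age when the feeding began and stayed on their diet for 9 months. A control diet with 10% fat (LFD) was represented by 3 libraries, a high fat diet with 60% fat (HFD) by 2 and a ketogenic diet with 89.9% fat (KD) by 4. The study asked how a ketogenic diet affects islet transcripts. The labels do not say whether a library is 1 animal or a pool, so p-values measure the spread between these libraries. They give no dates or batches either, so a batch and the diet cannot be told apart.

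The integrated stress response begins when a kinase phosphorylates the translation factor eIF2, which slows protein synthesis but favours translation of the ATF4 message. ATF4 protein then drives genes that import and make amino acids, charge tRNA and form glutathione, together with genes that damp the response again. Beta cells, which make large amounts of insulin, and acinar cells, which make digestive enzymes, are both known for heavy protein secretion and for their dependence on this pathway. Much of the regulation of ATF4 itself is translational, so an mRNA level does not measure ATF4 protein.

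ATF4 binds composite C/EBP-ATF elements, also called amino acid response elements, in the promoters of many of its targets. Windows from 250 bases before to 50 bases after the RefSeq start were available for 28 of the 32 genes (mouse build GRCm38.p6), all except Cth, Slc7a5, Slc7a3 and Eif4ebp1. The letters TGATGNAA, or TTNCATCA when the element lies on the other strand, were found in 8 of the 28 genes (28.57%), against 1219 of 27025 genes with a window (4.51%). The genes were listed as ATF4 targets in the first place, and a match is a description of the sequence, not of binding in these islets. The stretches of the 6 matching genes with the lowest p for KD against LFD are shown, so that the element can be read beside their diet values below. Each is written along the gene's own strand, with the matching letters in capitals.
Pycr1: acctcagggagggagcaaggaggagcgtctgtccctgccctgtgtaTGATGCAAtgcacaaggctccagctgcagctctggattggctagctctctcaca
Trib3: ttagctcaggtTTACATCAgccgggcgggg
Nupr1: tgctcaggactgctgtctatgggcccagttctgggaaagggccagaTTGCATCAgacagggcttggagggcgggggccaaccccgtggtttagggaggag
Asns: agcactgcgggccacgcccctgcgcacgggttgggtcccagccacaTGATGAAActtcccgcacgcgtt
Slc7a11: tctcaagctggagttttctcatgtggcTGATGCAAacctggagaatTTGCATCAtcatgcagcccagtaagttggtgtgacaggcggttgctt
Chac1: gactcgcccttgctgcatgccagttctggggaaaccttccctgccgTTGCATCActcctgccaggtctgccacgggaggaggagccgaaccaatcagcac
The Pycr1 stretch is chr11:120643798-120643897 (minus strand), and its element lies 103 bases before the start. In Trib3 the stretch is chr2:152344028-152344057 (minus strand), with the element 14 bases after the start, inside the transcribed part. For Nupr1 it is chr7:126625527-126625626 (minus strand), with the element 110 bases upstream. The Asns stretch is chr6:7693210-7693278 (minus strand), with the element 23 bases upstream. Slc7a11 has a pair of elements in opposite orientation, 66 and 47 bases upstream, in chr3:50443614-50443706 (minus strand). The Chac1 stretch is chr2:119351003-119351102 (plus strand), with the element 193 bases upstream. The remaining 2 genes with a match were Vldlr and Fgf21.

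Library totals ran from 15513502 to 26588390 counts. All 10 beta-cell markers had counts in every library, and together they took 5.72% to 9.49% of counts on LFD, 11.6% to 12.9% on HFD and 1.68% to 12.8% on KD. The 18 acinar markers, also with counts in every library, made up 31.3%, 22.1% and 13.5% of LFD replicates 1 to 3, 16.9% and 10.2% of the HFD libraries, and 53.8%, 39.3%, 49.9% and 18.1% of KD replicates 1 to 4. KD replicates 1 and 3 therefore stood apart as the libraries richest in acinar transcripts, while KD replicate 4 lay within the LFD range. The KD minus LFD difference in mean log2 percent was 0.82 (exact two-sided permutation p = 0.171 over 35 splits). It was 0.50 without LFD replicate 3, the lowest value over the omissions of single libraries, and 1.46 on TMM-scaled library sizes. The 12 B and T lymphocyte markers took 0.00849% to 0.154% of counts on LFD, 0.00696% to 0.0111% on HFD and 0.000374% to 0.0014% on KD, with Cd8a at 0 in both HFD libraries. In bulk RNA, fewer cells of a type and less RNA per cell cannot be told apart.

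On KD against LFD, 1 of the 32 genes passed the test, Atf5, which was higher. Of the 18 amino acid enzymes and transporters, 17 had estimates above 0 and none passed, while Ddit3 and Trib3 had estimates below 0. Of all 18548 genes tested, 0.981% passed as higher and 4.12% in either direction (edgeR quasi-likelihood test, Benjamini-Hochberg adjusted p below 0.05). Before adjustment, 8 of the 32 genes had a p below 0.05 in the higher direction, against 10.8% of all genes, and 2 in the lower direction, against 11.9%. The fitted log2 fold change was above 0 for 23 of 32 (48.11% of all genes), with a median of 0.58, where all genes tested had a median of -0.02. The KD and LFD libraries did not overlap for 5 genes that were higher on KD (9.69% of all genes) and for 1 that was lower (10.1%).

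**Figure D1:**
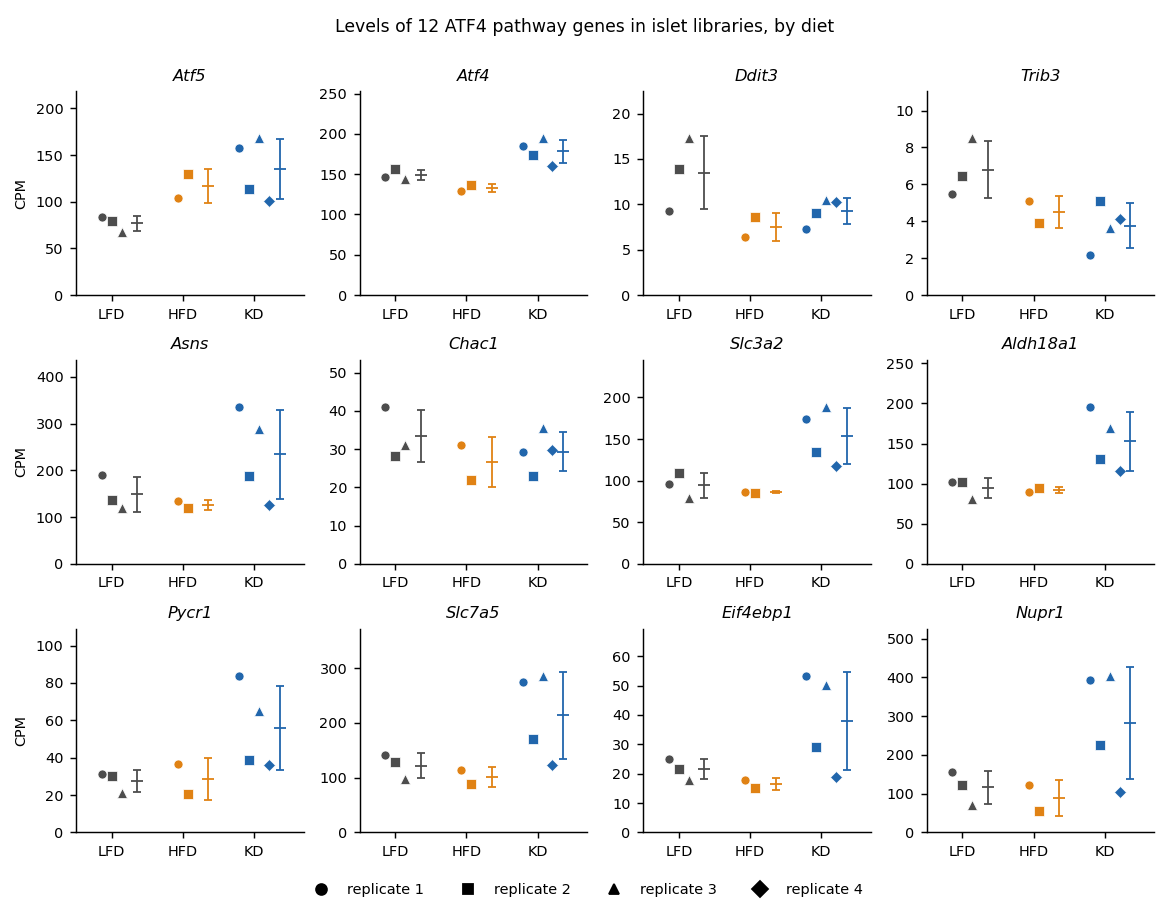
CPM of 12 genes by diet (vertical axes start at 0), with 1 symbol per library and the mean ± SD beside each diet. Atf5 in KD libraries lies between 101 and 168 CPM, above all 3 LFD libraries, while Asns, Slc7a5, Eif4ebp1 and Nupr1 in KD replicate 4 fall to the LFD levels.

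Levels are given in CPM, counts scaled to the same TMM-adjusted library total. Among the transcription factors, Atf4, the central activator, was at 147, 157 and 144 CPM in LFD replicates 1 to 3, at 129 and 136 in the HFD libraries, and at 185, 174, 194 and 161 in KD replicates 1 to 4. All KD libraries lay above all LFD libraries, and both HFD libraries below them. The KD against LFD log2 fold change was 0.26 (SE 0.12) and did not pass (edgeR adjusted p = 0.227). Atf5, a related activator whose translation is also favoured when eIF2 is phosphorylated, was at 83.8, 78.9 and 68.1 CPM on LFD, 104 and 130.1 on HFD, and 157, 114, 168 and 101 on KD. Neither fat-rich diet had a library that overlapped LFD. It rose on KD against LFD by a log2 fold change of 0.81 (SE 0.19, edgeR adjusted p = 0.0391). Atf5 was called in 7 of 20 alternative analyses, with adjusted p from 0.00339 to 0.58 and log2 fold changes from 0.48 to 0.93, and of the 9 omissions of a library only that of KD replicate 4 left the call in place.

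Nupr1, a small stress-induced chromatin protein known from inflamed pancreas, was at 156, 122 and 70.5 CPM on LFD, 122 and 55.5 on HFD, and 394, 225, 404 and 103 on KD. The KD libraries with the highest levels were replicates 1 and 3, and replicate 4 fell inside the LFD range. Its KD against LFD estimate, a log2 fold change of 1.28 (SE 0.50), was the highest of the 32 genes and did not pass (edgeR adjusted p = 0.180). Cebpg, a dimer partner of ATF4, had means of 65.9 ± 6.84 CPM (± SD) over the 3 LFD libraries, 60.1 ± 0.0701 over the 2 HFD libraries and 59.1 ± 2.34 over the 4 KD libraries.

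Ddit3, which encodes the pro-apoptotic factor CHOP, was at 9.26, 13.9 and 17.3 CPM on LFD, 6.40 and 8.59 on HFD, and 7.31, 9.04, 10.5 and 10.3 on KD. The LFD libraries spanned the widest range, and the lowest of them overlapped KD but not HFD. The log2 fold change of -0.54 (SE 0.23) did not pass (edgeR adjusted p = 0.192) on KD against LFD. The 1806 Ddit3 counts all sat on one identifier, and a second gene model overlapping it on the same strand was listed at 0 in every library. How reads shared by overlapping models were counted is not stated, so the Ddit3 level is uncertain. Trib3, a pseudokinase that CHOP and ATF4 induce and that restrains ATF4, was at 5.46, 6.45 and 8.49 CPM on LFD, 5.10 and 3.90 on HFD, and 2.18, 5.08, 3.65 and 4.12 on KD. Every LFD library lay above every other library. The KD against LFD log2 fold change of -0.84 (SE 0.29) did not pass (edgeR adjusted p = 0.118).

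Amino acid and one-carbon synthesis was represented by 12 enzymes. Of these, 11 had a log2 fold change above 0 on KD against LFD (48.11% of all genes), with a median of 0.65. Unadjusted p was below 0.05 for 3, all higher (10.8% of all genes), and none passed after adjustment. Asns, which makes asparagine, was at 191, 136 and 119 CPM on LFD, 134 and 119 on HFD, and 336, 188, 289 and 125 on KD. KD replicates 1 and 3 were above all LFD libraries, and KD replicates 2 and 4 were within their range. The log2 fold change of 0.66 (SE 0.30) did not pass (edgeR adjusted p = 0.230).

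Of the 12 enzymes, 2 of proline synthesis were the only ones whose KD libraries all lay above LFD (9.69% of all genes). Aldh18a1, its first enzyme, was at 102, 102 and 80.2 CPM on LFD, 89.4 and 94.5 on HFD, and 196, 131, 169.7 and 115 on KD. Pycr1, its last enzyme in mitochondria, was at 31.5, 30.2 and 21.01 CPM on LFD, 36.4 and 20.4 on HFD, and 83.9, 38.5, 64.9 and 36.3 on KD. For both genes all KD libraries exceeded all LFD libraries, but for Pycr1 HFD replicate 1 was above KD replicate 4. The KD against LFD log2 fold changes were 0.69 (SE 0.19, edgeR adjusted p = 0.0614) for Aldh18a1 and 1.02 (SE 0.32, edgeR adjusted p = 0.103) for Pycr1, so neither passed.

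The serine pathway enzymes Phgdh, Psat1 and Psph, which lead from glycolysis to serine, had KD against LFD log2 fold changes of 0.87, 0.67 and 0.21, and their KD and LFD libraries overlapped. Phgdh, the first of these enzymes, averaged 79.6 ± 29.9 CPM (± SD) over the 3 LFD libraries, 61.1 ± 14.5 over the 2 HFD libraries and 146 ± 75.1 over the 4 KD libraries. The mitochondrial folate enzymes Shmt2 and Mthfd2 had log2 fold changes of 0.65 and 0.63. Cbs and Cth, which turn homocysteine into cysteine, had 0.62 and 0.94, and Cth ran from 7.88 to 32.4 CPM on LFD and from 13.0 to 59.1 on KD. Gpt2, a mitochondrial alanine aminotransferase, had 0.08. Bcat1, a branched-chain aminotransferase, was the only enzyme of the 12 with a value below 0, -1.53 (SE 0.83, edgeR adjusted p = 0.302). It had 10 to 23 counts in the LFD libraries, 30 and 17 in the HFD libraries, 9 and 13 in KD replicates 2 and 4, and 0 in KD replicates 1 and 3, where a count of 0 allows up to 3. Its fitted fold change therefore depends on few reads.

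The 6 amino acid transporters all had log2 fold changes above 0 on KD against LFD (48.11% of all genes). The values ran from 0.07 for Slc38a2 to 0.95 for Slc7a3, with a median of 0.76, and none passed after adjustment. Slc3a2, the heavy chain that carries Slc7a5 and Slc7a11 to the membrane, was at 96.3, 109 and 78.5 CPM on LFD, 86.8 and 85.3 on HFD, and 174, 134, 188 and 117 on KD. It did not overlap between KD and either other diet, and its estimate of 0.70 (SE 0.18) against LFD missed the threshold (edgeR adjusted p = 0.0555). Slc7a5, the light chain that imports leucine and other large neutral amino acids, was at 141, 128 and 96.9 CPM on LFD, 114 and 88.3 on HFD, and 275, 171, 286 and 123 on KD. KD replicate 4 lay inside the LFD range, and the log2 fold change of 0.81 (SE 0.28) did not pass (edgeR adjusted p = 0.121). Slc7a11, which exchanges glutamate for cystine, ran from 6.14 to 19.3 CPM on LFD, from 3.39 to 8.15 on HFD and from 9.45 to 31.3 on KD. For Slc7a1, a carrier of arginine and lysine, the means were 89.6 ± 21.4 CPM (± SD) over the 3 LFD libraries, 53.4 ± 8.38 over the 2 HFD libraries and 131 ± 48.0 over the 4 KD libraries.

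Genes that restrain growth, translation or redox balance gave mixed estimates. Eif4ebp1, which blocks cap-dependent translation, was at 25.0, 21.6 and 18.01 CPM on LFD, 17.96 and 15.1 on HFD, and 53.4, 29.1, 50.2 and 18.8 on KD. As with Asns, Nupr1 and Slc7a5, KD replicates 1 and 3 were highest and KD replicate 4 was within the LFD range. Its log2 fold change of 0.81 (SE 0.32) against LFD did not pass (edgeR adjusted p = 0.167). Chac1, which degrades glutathione, was at 41.0, 28.2 and 31.1 CPM on LFD, 31.2 and 21.9 on HFD, and 29.2, 22.9, 35.6 and 29.7 on KD, so the 3 diets overlapped (log2 fold change -0.19, SE 0.19). Sesn2 and Ddit4, inhibitors of the growth kinase mTORC1, had log2 fold changes of 0.25 and -0.23. Of the secreted factors, Gdf15 had at most 2.24 CPM in any library, and Fgf21 and Stc2 had log2 fold changes of -0.13 and 0.09. Vldlr, a lipoprotein receptor, had means of 67.4 ± 17.7 CPM (± SD) over the 3 LFD libraries, 68.4 ± 14.4 over the 2 HFD libraries and 64.9 ± 14.6 over the 4 KD libraries.

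**Figure D2:**
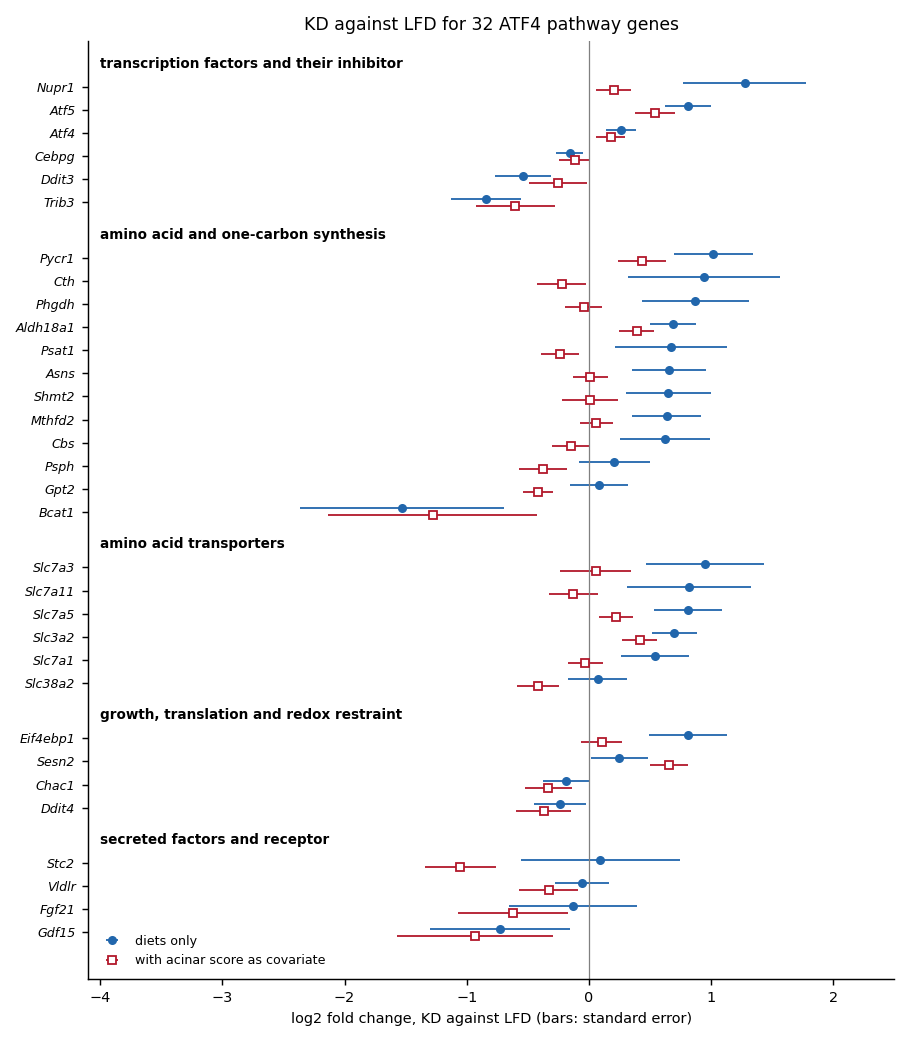
Log2 fold changes of KD against LFD for the 32 genes, grouped by role, from the fit of the diets alone (filled circles) and from the fit with the acinar score added (open squares), with SE bars. The enzymes and transporters sit mostly to the right of 0 in the first fit (medians 0.65 and 0.76) and around 0 in the second (medians -0.10 and 0.01).

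To compare levels between genes, CPM over the 9 libraries were averaged and divided by the longest annotated transcript in kilobases. On this scale Asns was highest of the 32 at 90.2 CPM per kilobase, followed by Atf4 at 78.5, Nupr1 at 74.9, Atf5 at 61.5 and Phgdh at 55.4. Slc7a5, Slc3a2, Slc38a2 and Aldh18a1 came next, between 45.0 and 34.0. Ddit3 was at 10.6 and Trib3 at 2.44, ranks 23 and 29 of the 32, and Gdf15 and Bcat1 were lowest at 0.693 and 0.0805.

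On HFD against LFD, none of the 32 genes passed the edgeR test (smallest adjusted p = 0.390), and 0% of all genes did. DESeq2 and limma also called 0 of the 32. By unadjusted p below 0.05, 1 gene was higher, Atf5 (3.55% of all genes), and 3 were lower, Ddit3, Gpt2 and Slc38a2 (6.44% of all genes). The log2 fold change was 0.61 (SE 0.22) for Atf5 and -0.85 (SE 0.28) for Ddit3. For the alanine enzyme Gpt2 it was -0.76 (SE 0.29), with 33.4 to 50.7 CPM on LFD and 22.8 and 28.1 on HFD. Slc38a2, a carrier of small neutral amino acids, had -0.67 (SE 0.29), with 210.2 to 251 CPM on LFD and 127 and 169 on HFD. Estimates were below 0 for 26 of the 32 (median -0.29, against -0.002 for all genes). The libraries did not overlap for 1 gene that was higher (13.4% of all genes) and 8 that were lower (14.1%), and the acinar share was also lower in mean on HFD, as given above.

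On KD against HFD, again none of the 32 passed (smallest edgeR adjusted p = 0.124; 0% of all genes), while the DESeq2 Wald test called 8 as higher, beside 7.32% of all genes, and limma called 0. Unadjusted p was below 0.05 for 15 genes, all higher on KD, against 12.1% of all genes, and for no gene in the lower direction, against 10.6%. Slc3a2, Slc7a1 and Aldh18a1 had the lowest p, with log2 fold changes of 0.83 (SE 0.21), 1.29 (SE 0.33) and 0.73 (SE 0.21). Slc7a11 had the highest estimate, 1.90 (SE 0.62), and Slc7a5 had 1.08 (SE 0.33). Atf5 had 0.20 (SE 0.21), and its KD and HFD libraries overlapped. The median over the 32 was 0.79 (-0.04 for all genes), and the acinar share was also higher in mean on KD. No overlap was seen for 8 genes that were higher on KD (15.7% of all genes) and for 2 that were lower, Bcat1 and Gdf15 (18.2%). This comparison and the one with LFD share the KD libraries, so their values are not independent. Without KD replicate 4, 8 of the 32 passed on KD against LFD and 13 on KD against HFD, all higher, beside 7.40% and 9.84% of all genes.

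Within diets, most of these genes moved with the acinar content of the library. The acinar score, the mean log2 CPM of the 18 acinar markers, was fitted beside the diet means for every gene, and the slope is the log2 change of a gene per log2 unit of that score. Slopes were positive for 27 of the 32 genes, with a median of 0.46 against -0.007 for all genes tested. By the edgeR test 19 of the 32 passed with a positive slope (5.63% of all genes) and 1 with a negative slope (3.08%). The 19 comprised 11 of the 12 enzymes (all but Bcat1), 5 of the 6 transporters (all but Slc3a2), and Nupr1, Eif4ebp1 and Stc2. Cth had a slope of 0.99 (SE 0.10, edgeR adjusted p = 4.69e-05), Phgdh 0.71 (SE 0.07, adjusted p = 4.87e-05), Asns 0.50 (SE 0.07, adjusted p = 0.000543) and Nupr1 0.82 (SE 0.07, adjusted p = 7.53e-06). Atf4 (0.07, SE 0.06), Atf5 (0.22, SE 0.08), Cebpg, Ddit3, Trib3 and Chac1 did not pass. For Atf5 the slope had an unadjusted p of 0.0147 by the edgeR test (adjusted p = 0.107).

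**Figure D3:**
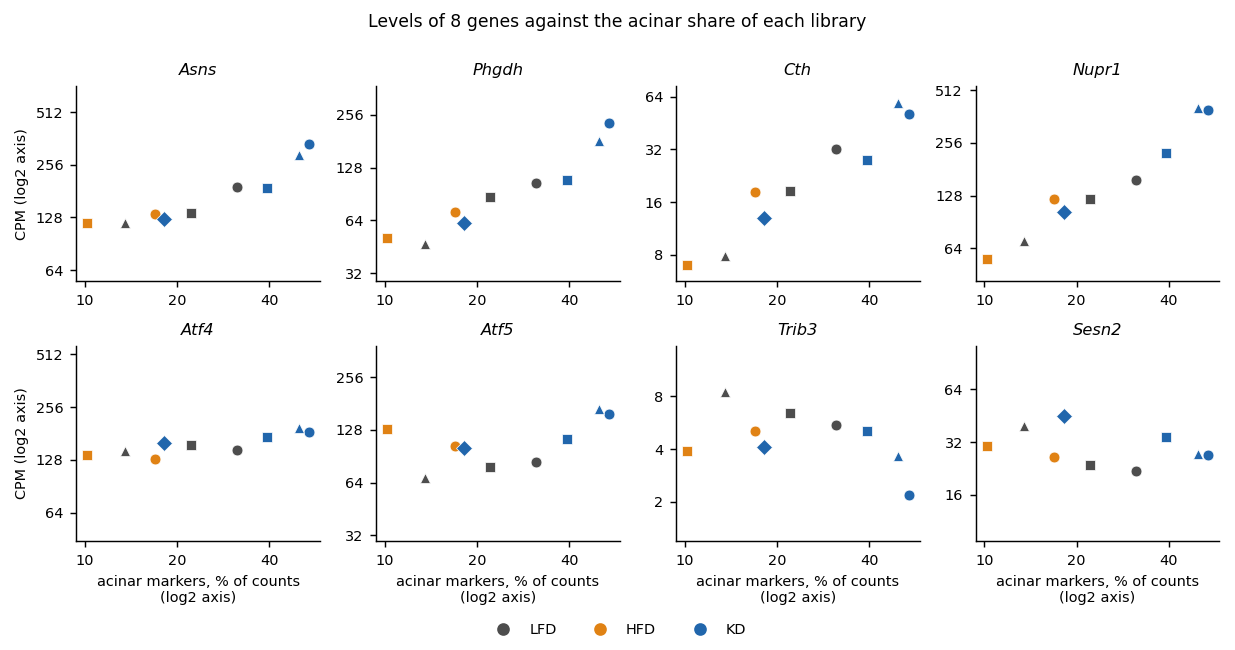
CPM of 8 genes against the share of counts from 18 acinar markers, 1 point per library (both axes log2; colours give the diet and symbol shapes the replicate number). Asns, Phgdh, Cth and Nupr1 climb from left to right in libraries of all 3 diets, Atf4 stays between 129 and 194 CPM, and Trib3 and Sesn2 do not climb. Atf5 climbs within LFD and is highest in KD replicates 1 and 3, but is lower in the HFD library with the larger share.

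The 4 enzymes and factors with these slopes were picked for the plot after their values were seen, and so was Sesn2, a leucine sensor that inhibits mTORC1. Sesn2 was at 21.8, 23.8 and 39.3 CPM on LFD, 26.3 and 30.3 on HFD, and 27.2, 34.1, 27.5 and 45.3 on KD. In each diet its highest library was the one with the lowest acinar share, and its slope was -0.35 (SE 0.07, edgeR adjusted p = 0.00754). That call was absent without KD replicate 4. The count of positive slopes was 11 without KD replicate 4, where 1.49% of all genes passed, and 14 to 21 on omission of any other library.

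With the acinar score in the model, the KD against LFD log2 fold changes of the 32 genes had a median of -0.12 (-0.017 for all genes). Of the 32, 13 were above 0, beside 9021 of all 18548 genes. The enzymes had a median of -0.10 and the transporters of 0.01. In this fit 2 genes passed, beside 7.57% of all genes. Sesn2 rose by 0.66 (edgeR adjusted p = 0.0238), and Stc2, a secreted glycoprotein of the stress response, fell by 1.05 (edgeR adjusted p = 0.0498). Atf5 had 0.54 (edgeR adjusted p = 0.0619), Slc3a2 0.42, Aldh18a1 0.39, Pycr1 0.43 and Asns 0.01. On KD against HFD the same fit gave a median of -0.17 (-0.03 for all genes), with 10 of the 32 above 0 (8827 of all 18548). On HFD against LFD it gave 0.155 (0.011 for all genes), with 20 above 0 (9585 of all 18548). With KD replicates 1 and 3 left out, none of the 32 passed on KD against LFD, beside 0.351% of all genes. Atf5 then had a log2 fold change of 0.48.

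**Figure D4:**
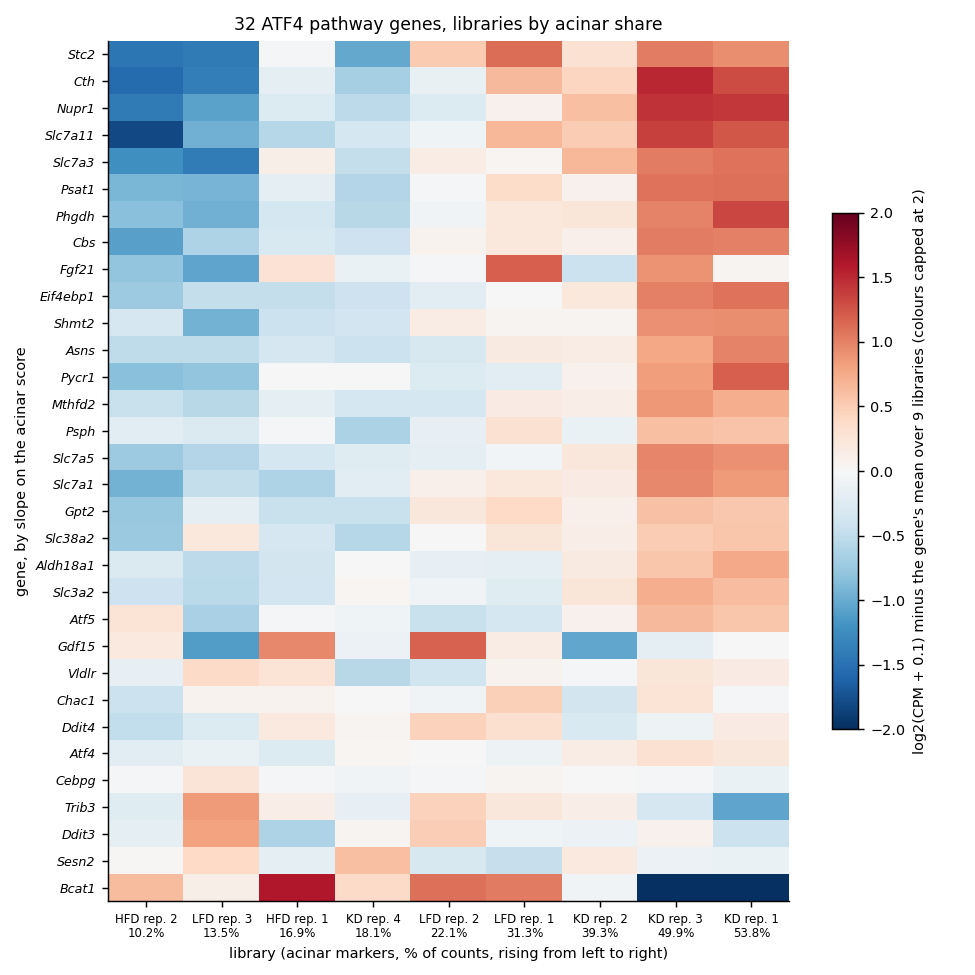
Log2 of CPM plus 0.1 minus the gene's mean over the 9 libraries (colour, capped at 2 in either direction), with genes ordered by slope on the acinar score and libraries by acinar share, from 10.2% to 53.8%. The upper rows turn from blue to red from left to right across libraries of different diets, while Cebpg, Trib3, Ddit3 and Sesn2 near the bottom do not. Atf4, also in the lower rows, changes over a narrow range, 129 to 194 CPM, and is highest in KD replicates 1 to 3.

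The rest of the pathway was read from a list of 58 further genes, of which 57 were matched and tested. On KD against LFD 2 passed, beside 4.12% of all genes in either direction, and 1 of them, Atf3, fell. Atf3, an immediate stress-response factor induced together with ATF4 targets, was at 80.4, 67.8 and 51.9 CPM on LFD, 21.5 and 21.998 on HFD, and 13.2, 10.5, 6.86 and 11.4 on KD. The 3 diets did not overlap, and the log2 fold change of -2.66 (SE 0.21) passed (edgeR adjusted p = 0.000784) on KD against LFD. On HFD against LFD it was -1.62 (SE 0.26), which did not pass with edgeR (adjusted p = 0.134). It passed with DESeq2 and with limma. The mean lymphocyte marker share also fell from LFD to HFD to KD. In the KD libraries the share had the same order as Atf3, from 0.00037% in replicate 3 to 0.0014% in replicate 1. LFD replicate 1 had the highest Atf3 but a lower share, 0.0542%, than LFD replicate 2 at 0.154%. LFD replicate 3, with Atf3 at 51.9 CPM, had a lymphocyte share of 0.00849%, between the HFD libraries at 0.00696% and 0.0111%. The cause of the Atf3 difference was not tested. With a lymphocyte score as a covariate 0% of all genes passed on KD against LFD, so the absence of calls in that fit is not particular to these lists. Atf5 then had a log2 fold change of 0.92 (edgeR adjusted p = 0.536).

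The eIF2 kinases and their co-activator had 4 of 5 estimates above 0 on KD against LFD, and none of the 5 passed. Eif2ak3, which encodes the endoplasmic reticulum sensor PERK and was picked for its role after its values were seen, had means of 100.1 ± 20.9 CPM (± SD) over the 3 LFD libraries, 68.0 ± 5.47 over the 2 HFD libraries and 135 ± 41.6 over the 4 KD libraries. KD replicate 4, at 82.5 CPM, lay below all LFD libraries. The KD against LFD log2 fold change of Eif2ak3 was 0.43, and 0.008 with the acinar score in the model. Ppp1r15a, the stress-induced subunit of the eIF2 phosphatase and likewise picked afterwards, had 24.8 ± 4.60, 18.4 ± 0.599 and 18.8 ± 1.56 CPM, and its KD against LFD log2 fold change of -0.39 (SE 0.15) did not pass (edgeR adjusted p = 0.147). All 8 subunits of eIF2 and eIF2B had estimates above 0, with a median of 0.33, and none passed. Among 19 cytosolic tRNA synthetases, which ATF4 is known to induce, 17 estimates were above 0 (median 0.33), 9 had an unadjusted p below 0.05 in the higher direction, and none passed after adjustment. Over all 57 genes, 50 estimates were above 0 on KD against LFD (48.11% of all genes), with a median of 0.31. Unadjusted p was below 0.05 for 20 as higher (10.8% of all genes) and 3 as lower (11.9%). With the acinar score in the model, the median of the 57 on KD against LFD was 0.095 (-0.017 for all genes). Of the 57, 42 were above 0, beside 9021 of all 18548 genes. On HFD against LFD no gene of the 57 passed with edgeR. By unadjusted p below 0.05, 2 were higher (3.55% of all genes) and 4 lower (6.44%). On KD against HFD the edgeR test called none, and before adjustment 27 were higher (12.1% of all genes) and 3 lower (10.6%). For that comparison DESeq2 called 11 of the 57, beside 7.32% of all genes, and limma 0. The slope on the acinar score passed as positive for 12 of the 57 (5.63% of all genes) and as negative for none (3.08%).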

How the data were processed

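RNA from 9 islet samples was sequenced after poly(A) selection as strand-marked libraries, per the labels' protocols. The authors deposited raw counts per Ensembl gene. Per the submitters' processing notes the tools were cutadapt 1.16, STAR 2.7.9a, featureCounts 1.6.3 and DESeq2 1.40.2 with build GRCm39. The annotation and the strand setting of the counting are not given in the sources used here. Totals of 15513502 to 26588390 counts put 95% Wilson intervals of the acinar share within 0.0231 percentage points, counting error only.

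Counts were analysed with edgeR 4.0.16 (R 4.3.3): filterByExpr by diet (18548 genes, 501 without a symbol, at least 99.86% of counts), TMM scaling, a robust quasi-likelihood fit of all 9 libraries with a mean per diet, two-sided tests, and Benjamini-Hochberg adjustment over all genes with a threshold of 0.05. SE is the size of the log2 fold change over the square root of F. Scores are mean log2 CPM (prior count 2). The smallest chi-square per gene between libraries of a diet was 22.5, so no library was a duplicate, and r across genes was 0.941 to 0.975. Alternatives were DESeq2 1.42.0, limma 3.58.1 (voom), other scalings, no filter, the compared diets alone, acinar and lymphocyte covariates, a replicate block and the omission of each library. The fit was tested on simulated data.

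The members and lists were chosen with earlier results of these data known. Values in every library are given for genes past the threshold, for Atf4, Ddit3, Trib3, Asns and Chac1, and for those of lowest p for KD against LFD up to 12. Further pathway genes are named if past the threshold. The values of 1 gene that this rule names are not reported here. Promoter stretches are the 6 motif-bearing genes of lowest p. The slope test, both scores together and the omission of KD replicates 1 and 3 were added after seeing the data. Nars1 was not matched. Transcript lengths (GENCODE M21) and promoters are of GRCm38, an older build than the counts.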

Additional observations from a re-analysis of the deposited data

How the results depend on the processing

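The estimate of Atf5 on KD against LFD kept its sign in all 20 alternatives. Some estimates that had not passed changed sign without passing, such as Asns and Eif4ebp1 on KD against LFD with both scores as covariates. On KD against LFD, 1 of the 32 genes and 2 of the 57 further genes passed in the analysis reported, beside 4.12% of all genes. DESeq2 gave 4 and 8 (9.56% of all genes), limma-voom 3 and 7 (10.1%), no low-count filter 3 and 6 (3.42%), the lymphocyte covariate 0 and 0 (0%), both scores 1, Vldlr as lower, and 0 (0.221%), and the omission of KD replicates 1 and 3 gave 0 and 1 (0.351%). For the 32, TMM without acinar and hormone genes gave 2 (4.65%), the compared diets alone 0 (3.12%) and the acinar covariate 2 (7.57%). Leaving out single libraries gave 0 to 8 of the 32 and 1 to 12 of the 57. The 8 and the 12 came without KD replicate 4 (7.40%), and the omission of each of the other 8 libraries gave 0 of the 32. On KD against HFD, where none passed, DESeq2 gave 8 of the 32 and 11 of the 57 (7.32%), no filter gave 2 and 1 (1.02%), and omissions gave 0 to 13 and 0 to 23, the highest without KD replicate 4 (9.84%). On HFD against LFD no alternative called any of the 32. The 57 gave 0, then 1 with DESeq2 (1.44%), limma-voom (0.0593%) or no filter (0.261%), and 0 to 1 on omission, the 1 without LFD replicate 3 (1.06%). Positive slopes on the acinar score numbered 19, and 11 to 21 on omission. The counts over all genes moved with these settings too, and the causes were not tested.

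The values do not settle whether same-numbered libraries are paired. Correlations of same-numbered libraries ran from -0.0164 to 0.222, and 4 of 8 libraries with a same-numbered partner correlated best with their own number. With the replicate block, 10 of the 32 and 15 of the 57 passed on KD against LFD (10.8% of all genes), 16 and 25 on KD against HFD (12.5%), and 0 and 1 on HFD against LFD (2.13%). Positive slopes under the block numbered 5 of the 32 (0.426% of all genes) and negative ones 0.

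With 2 HFD libraries, contrasts with HFD rest on a spread borrowed from the other diets, and low-count genes such as Bcat1, Gdf15 and Trib3 are limited by depth.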
